A study of Mus musculus with 17 samples.

Results

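Basement membranes are the thin sheets of matrix that lie beneath endothelium and around each cardiac muscle cell. Their core is encoded by the 10 genes described here: the collagen IV chains Col4a1 and Col4a2, the laminin chains Lama2, Lama4, Lama5, Lamb1, Lamb2 and Lamc1, the linker nidogen-1 (Nid1) and the heparan sulfate proteoglycan perlecan (Hspg2). They were listed by gene name and make up 10 of the 31647 features counted. All 10 were among the 12301 features with enough counts to be tested.

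The hearts came from wild-type male C57BL/6 J mice, young adults by the study's methods. In 9 mice the left anterior descending coronary artery (LAD) was ligated permanently, without reperfusion, and the infarct zone (IZ) was taken 5 days later. In 8 sham-operated mice the same procedure was done without ligation, and left ventricular tissue was taken on day 5. The comparison asks how gene expression in the IZ differs from that in uninjured ventricle.

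A basement membrane is built from a pair of networks. Laminins are trimers of one alpha, one beta and one gamma chain that polymerise at the cell surface and bind integrins and dystroglycan. Collagen IV trimers, mostly of Col4a1 and Col4a2 chains, form a covalently crosslinked network, and nidogen and perlecan tie the networks together. In the heart, laminin with the Lama2 chain surrounds cardiomyocytes, while Lama4 and Lama5 are the typical alpha chains of vessels.

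The upstream sequence of 4 members is shown because members that rose in the IZ (Lamb1 and Nid1) and members that fell (Lamb2 and Lama5) can be set side by side. The stretches are the part of the 250 bases before the RefSeq start that lies in no annotated exon, from the RefSeq promoter table of GRCm38.p6, written 5′ to 3′ on the gene's strand. Capitals mark the letters GGGCGG or their reverse complement, the core of a GC box. Lamb1 lies at chr12:31265043-31265233 (+, 191 bases), Nid1 at chr13:13437352-13437550 (+, 199 bases), Lamb2 at chr9:108479612-108479735 (+, 124 bases) and Lama5 at chr2:180225860-180226109 (−, 250 bases).
Lamb1: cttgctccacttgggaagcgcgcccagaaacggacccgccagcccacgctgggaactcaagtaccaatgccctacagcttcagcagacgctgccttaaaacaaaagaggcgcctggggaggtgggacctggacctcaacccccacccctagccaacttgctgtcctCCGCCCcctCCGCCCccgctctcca
Nid1: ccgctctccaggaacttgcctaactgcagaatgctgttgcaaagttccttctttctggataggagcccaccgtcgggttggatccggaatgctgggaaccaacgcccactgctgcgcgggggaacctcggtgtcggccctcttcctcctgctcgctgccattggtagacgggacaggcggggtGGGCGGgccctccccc
Lamb2: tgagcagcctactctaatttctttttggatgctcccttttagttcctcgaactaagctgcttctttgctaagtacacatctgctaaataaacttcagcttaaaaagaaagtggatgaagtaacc
Lama5: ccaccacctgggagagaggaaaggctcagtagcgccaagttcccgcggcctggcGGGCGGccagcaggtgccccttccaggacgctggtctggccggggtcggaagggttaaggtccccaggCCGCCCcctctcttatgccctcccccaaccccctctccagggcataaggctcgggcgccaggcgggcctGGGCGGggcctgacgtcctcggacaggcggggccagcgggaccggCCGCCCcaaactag

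The Lama5 stretch held 4 GC boxes at 72.4% G and C, Lamb1 held 2 at 63.9%, Nid1 held 1 at 63.8%, and Lamb2 held 0 at 37.9%. The stretches differ in length and end 1 (Lama5), 52 (Nid1), 60 (Lamb1) and 127 (Lamb2) bases before the start, so they are unlike parts. The table had windows for 8 of the 10 members, all but Lama4 and Lamc1, each of 300 bases with 250 before the start. G and C in the windows were 72.7% for Lama5, 64.7% for Nid1, 63.7% for Lamb1 and 44.0% for Lamb2. The median of all windows was 52.7%. In these windows, searched on both strands, GGGCGG was found for 7 of 8 members (all but Lamb2) and in 35.7% of all 32851 windows. CCAAT was found for 4 of 8 (Col4a1, Col4a2, Lamb1 and Nid1) and in 37.4% of all windows. TATAAA and the AP-1 letters TGANTCA were found in 0 of 8, against 13.6% and 7.81% of all windows. None of these motifs contains another. A match is a description of the letters, not a site shown to be in use.

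The libraries were made by MACE, which sequences 1 tag near the 3′ end of each transcript, and held 1237675 to 4738307 counts. Levels are given as CPM, counts per 1000000 of the library size after TMM scaling, which corrects for a few genes taking much of a library. One library stood apart: in IZ replicate 1, 19.5% of counts were mitochondrially encoded, against 4.22% to 6.78% in the other IZ libraries and 22.9% to 32.4% in sham. Its summed cardiomyocyte markers reached 31309 CPM, against at most 7648 CPM in the other IZ libraries, so results that move with it are also given without it. All 10 cardiomyocyte markers were lower in the IZ (summed level 71334 to 91083 CPM in sham and 3115 to 31309 CPM in the IZ). In such bulk tissue, fewer cells of a type and less RNA per cell cannot be told apart.

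Of the 10 members, 6 were higher in the IZ (Col4a1, Col4a2, Lama4, Lamb1, Lamc1 and Nid1), 2 were lower (Lama5 and Lamb2), and Lama2 and Hspg2 did not pass the threshold of edgeR's quasi-likelihood test (Benjamini-Hochberg adjusted p under 0.05 over all features). Of all features tested, 69.5% were called, 36.3% higher and 33.1% lower. The 8 of 10 members called are thus near the background, with a larger share higher (6 of 10) and a smaller share lower (2 of 10) than among all features. The members and the lists below were chosen with earlier results of these data known, so such shares are a description only. Every IZ library lay above every sham library for those same 6 members, against 16.6% of all features. Every IZ library lay below every sham library for 1 member, Lama5, against 16.5% of all features. The median log2 fold change of the members was 0.88, beside 0.05 for all features. Scaling by total counts alone moved the median of all features from 0.05 to 1.13, and 8 members were then called higher and 1 lower.

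**Figure D1:**
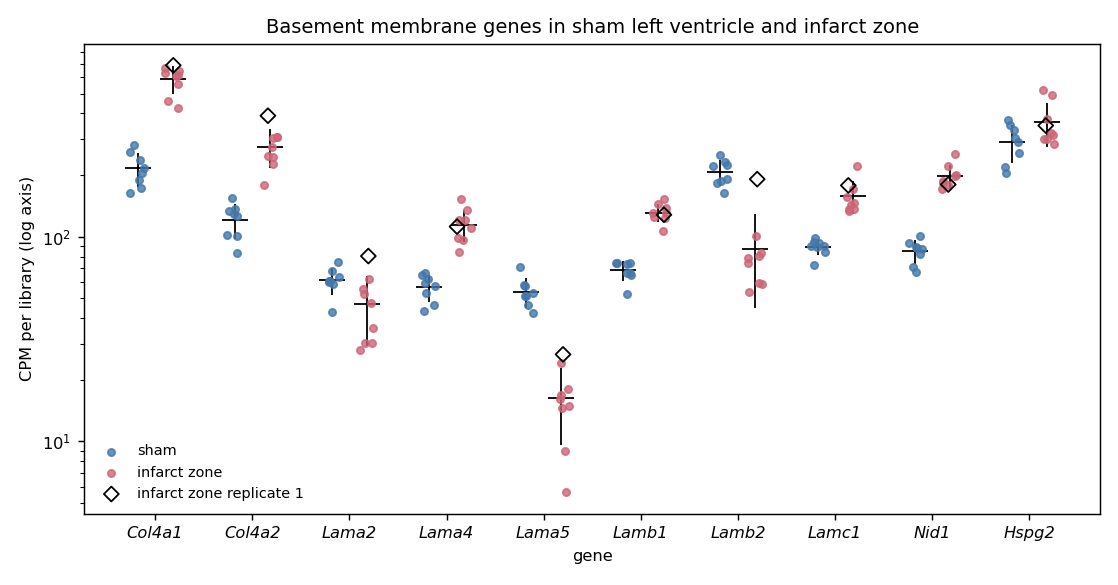
CPM of the 10 genes in each of 8 sham and 9 IZ libraries on a log axis; points are libraries, the open diamond is IZ replicate 1, and bars are the mean ± SD. The 6 genes that rose do not overlap with sham, Lama5 lies below sham without overlap, and IZ replicate 1 lies among the sham libraries for Lamb2.

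Both collagen IV chains rose, and Col4a1 had the highest log2 fold change of the 10 members. Col4a1 (ENSMUSG00000031502, chr8:11198423-11312826, − strand, GRCm38), the chain present in 2 copies in the common trimer, lay between 164 and 281 CPM in sham with a median of 211, and between 424 and 687 CPM in the IZ with a median of 613. The highest sham library was well below the lowest IZ library. The mean rose from 215 ± 41.3 CPM (SD, n = 8) to 589 ± 90.7 CPM (SD, n = 9), 2.74-fold higher (log2 fold change 1.45 ± 0.14, SE), with an adjusted p of 4.67e-09 by edgeR's quasi-likelihood test.

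Col4a2 (ENSMUSG00000031503, chr8:11312805-11449287, + strand), its partner chain, lay between 83.6 and 155 CPM in sham with a median of 128, and between 179.5 and 389.8 CPM in the IZ with a median of 274. Again the groups did not overlap, and IZ replicate 1 was the highest library. The mean went from 121 ± 23.3 CPM in sham to 275 ± 60.1 CPM in the IZ. Its log2 fold change was 1.19 ± 0.15 (2.28-fold, adjusted p of 2.23e-07 by edgeR's quasi-likelihood test), and 1.08 without IZ replicate 1. The annotated transcripts of these genes start head to head on opposite strands and share 22 bases at chr8:11312805-11312826, far from the 3′ ends that were counted.

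Both chains rose, but not by the same factor. Within each library, the log2 ratio of Col4a1 to Col4a2 counts was 0.84 ± 0.20 for sham (mean ± SD, n = 8) and 1.11 ± 0.21 for the IZ (n = 9). The difference of 0.27 ± 0.10 (SE) gave an exact two-sided permutation p of 0.0165 (0.0165 adjusted over 8 ratios), and 3 of 9 IZ libraries lay above all sham libraries. Col4a1 made up 64.1% ± 3.16 of the tags of both chains in sham and 68.3% ± 3.12 in the IZ. Tag numbers at 3′ ends depend on priming as well as on transcript number, so the shift of the ratio, not its level, is the measurement.

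**Figure D2:**
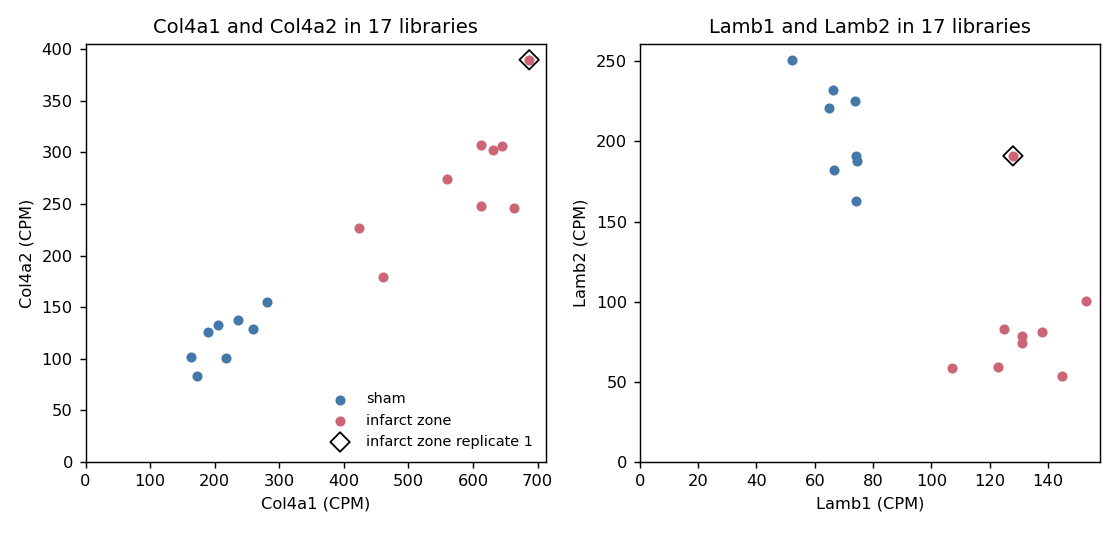
Left, Col4a2 against Col4a1 CPM; right, Lamb2 against Lamb1 CPM; each point is 1 of 17 libraries and the open diamond marks IZ replicate 1. Both collagen chains are higher in the IZ, while Lamb1 is higher and Lamb2 lower there, except for Lamb2 in IZ replicate 1 at 191 CPM.

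Collagen IV is folded and modified in the endoplasmic reticulum and crosslinked outside the cell, and the genes for these steps were examined as a list. Of its 12 genes, all tested, 10 were higher, 0 were lower and 2 did not pass, with a median log2 fold change of 1.60. Over all features 36.3% were higher and 33.1% lower. The highest was Serpinh1, the collagen chaperone HSP47, at 201 ± 32.4 CPM in sham and 1147 ± 269.5 CPM in the IZ (log2 fold change 2.51, SE 0.17). The lowest was P4ha2, a prolyl hydroxylase subunit (0.15, adjusted p of 0.338 by edgeR's quasi-likelihood test). Pxdn, the peroxidase that forms the sulfilimine crosslinks of collagen IV, is 1 of the 10 that rose, and Mia3, which helps export large collagens, is the other that did not pass (0.23, adjusted p of 0.0855 by edgeR's quasi-likelihood test). Most of these enzymes also serve the fibrillar collagens, whose genes Col1a1, Col1a2 and Col3a1 are among the fibroblast markers. Pxdn and Mia3 were named after their values were seen.

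The alpha chains moved in different directions. Lama4 (ENSMUSG00000019846, chr10:38965515-39110188, + strand), an alpha chain of vascular basement membranes, lay between 43.1 and 66.6 CPM in sham (median 58.1) and between 84.4 and 152 CPM in the IZ (median 112), with no overlap. The sham mean was 56.6 ± 8.48 CPM and the IZ mean 114 ± 20.6 CPM, 2.02-fold higher (log2 fold change 1.02 ± 0.13, adjusted p of 1.84e-07 by edgeR's quasi-likelihood test).

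Lama5 (ENSMUSG00000015647, chr2:180176373-180225859, − strand), the other vascular alpha chain, moved the opposite way. It lay between 42.2 and 71.3 CPM in sham (median 52.2) and between 5.63 and 26.6 CPM in the IZ (median 16.1), again with no overlap. The mean was 53.8 ± 8.77 CPM in sham and 16.2 ± 6.54 CPM in the IZ, 3.26-fold lower (log2 fold change -1.70 ± 0.19, adjusted p of 4.36e-08 by edgeR's quasi-likelihood test). It passed as lower in all 26 alternatives, including total counts alone (-0.65).

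Lama2 (ENSMUSG00000019899, chr10:26980036-27619758, − strand), the alpha chain of the muscle basement membrane, overlapped between the groups. It lay between 42.8 and 75.1 CPM in sham (median 60.5) and between 27.9 and 80.4 CPM in the IZ (median 47.2), and IZ replicate 1 was the highest of all libraries. The mean was 61.1 ± 9.24 CPM in sham and 46.8 ± 17.6 CPM in the IZ. The log2 fold change was -0.38 ± 0.18 (adjusted p of 0.0664 by edgeR's quasi-likelihood test). Without IZ replicate 1 it was -0.55 (adjusted p of 0.00246 by edgeR's quasi-likelihood test), and with total counts alone it was 0.66 and passed as higher (adjusted p of 0.000671 by edgeR's quasi-likelihood test). In its last 500 bases Lama2 shares 158 identical bases with the overlapping antisense gene Gm48084, which has no feature of its own in the table.

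Ratios within a library, which do not depend on scaling, separated the 3 alpha chains. The log2 ratio of Lama4 to Lama5 averaged 0.07 ± 0.32 in sham and 2.91 ± 0.73 in the IZ, a difference of 2.84 ± 0.27 (SE). That of Lama4 to Lama2 went from -0.11 ± 0.34 to 1.35 ± 0.54 (difference 1.46 ± 0.22), and that of Lama5 to Lama2 from -0.18 ± 0.37 to -1.56 ± 0.63 (difference -1.37 ± 0.25). Each had an exact two-sided permutation p of 8.23e-05, the smallest that an exact test of 8 against 9 libraries can give (0.000132 adjusted over 8 ratios), and in each the groups did not overlap. For Lama4 to Lama5 this follows from both genes not overlapping, in opposite directions. For Lama4 to Lama2 the gap was narrow, with IZ replicate 1 at 0.48 and the highest sham library at 0.46. The other IZ libraries began at 0.88, and the difference without IZ replicate 1 was 1.57. Lama4 made up 33.0% ± 4.16 of the tags of the 3 chains in sham and 64.9% ± 7.93 in the IZ, while Lama5 went from 31.4% ± 4.44 to 9.12% ± 3.24.

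**Figure D3:**
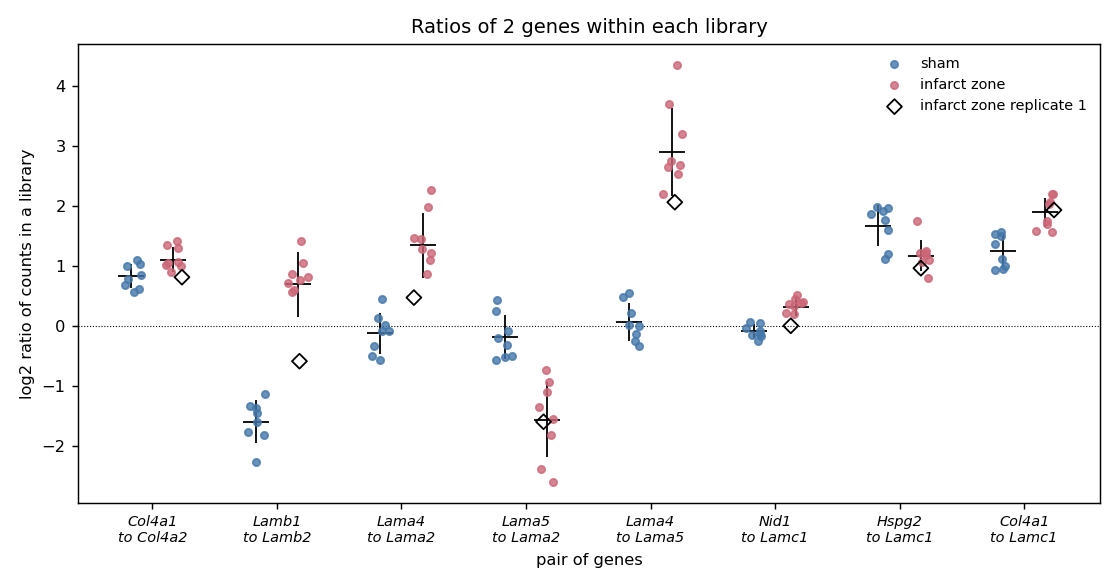
Log2 ratio of the counts of 2 genes in each library for 8 pairs; points are libraries, bars are the mean ± SD, and the open diamond is IZ replicate 1. The Lama4 to Lama5 and Lamb1 to Lamb2 ratios show the widest separation of the groups.

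The beta chains also diverged. Lamb1 (ENSMUSG00000002900, chr12:31265234-31329644, + strand), the widely expressed beta chain, lay between 52.3 and 74.6 CPM in sham (median 70.3) and between 107 and 153 CPM in the IZ (median 131), with no overlap. Its mean rose from 68.4 ± 7.72 to 131 ± 13.3 CPM (1.92-fold, log2 fold change 0.94 ± 0.10, adjusted p of 2.13e-08 by edgeR's quasi-likelihood test). Its spread within the groups was small, with a coefficient of variation of 11.3% in sham and 10.1% in the IZ.

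Lamb2 (ENSMUSG00000052911, chr9:108479736-108490530, + strand), the beta chain of mature muscle and vessel basement membranes, lay between 163 and 251 CPM in sham (median 206) and between 53.7 and 191 CPM in the IZ (median 78.7). Of the 9 IZ libraries, 8 were below all sham libraries, and the exception was IZ replicate 1 at 191 CPM. The mean fell from 206 ± 29.9 to 86.6 ± 41.8 CPM (2.38-fold lower, log2 fold change -1.25 ± 0.20, adjusted p of 5.67e-06 by edgeR's quasi-likelihood test). Without IZ replicate 1 the IZ mean was 73.6 ± 15.6 CPM and the log2 fold change -1.52. Scaled by total counts alone it was -0.23 and did not pass (adjusted p of 0.169 by edgeR's quasi-likelihood test).

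The log2 ratio of Lamb1 to Lamb2 averaged -1.59 ± 0.35 in sham and 0.70 ± 0.54 in the IZ, a difference of 2.29 ± 0.22 (SE; exact two-sided permutation p of 8.23e-05, adjusted 0.000132) and of 2.45 without IZ replicate 1. It was negative in all 8 sham libraries and positive in 8 of 9 IZ libraries, with IZ replicate 1 at -0.58. Lamb1 made up 25.2% ± 4.42 of the tags of both beta chains in sham. In the IZ it made up 40.1% in replicate 1 and 60.0% to 73.0% in the other 8 libraries.

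Lamc1 (ENSMUSG00000026478, chr1:153218922-153332786, − strand), the gamma chain shared by most laminins, rose with Lama4 and Lamb1. It lay between 72.8 and 98.2 CPM in sham (median 90.1) and between 133 and 221 CPM in the IZ (median 146), with no overlap. The mean went from 89.0 ± 7.79 to 158 ± 28.4 CPM. The log2 fold change was 0.83 ± 0.11 (1.77-fold, adjusted p of 9.15e-07 by edgeR's quasi-likelihood test), the smallest of the 6 members that rose. Within the libraries, the log2 ratio of Col4a1 to Lamc1 was 1.25 ± 0.28 in sham and 1.90 ± 0.25 in the IZ, higher by 0.64 ± 0.13 (SE; exact two-sided permutation p of 8.23e-05, adjusted 0.000132).

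**Figure D4:**
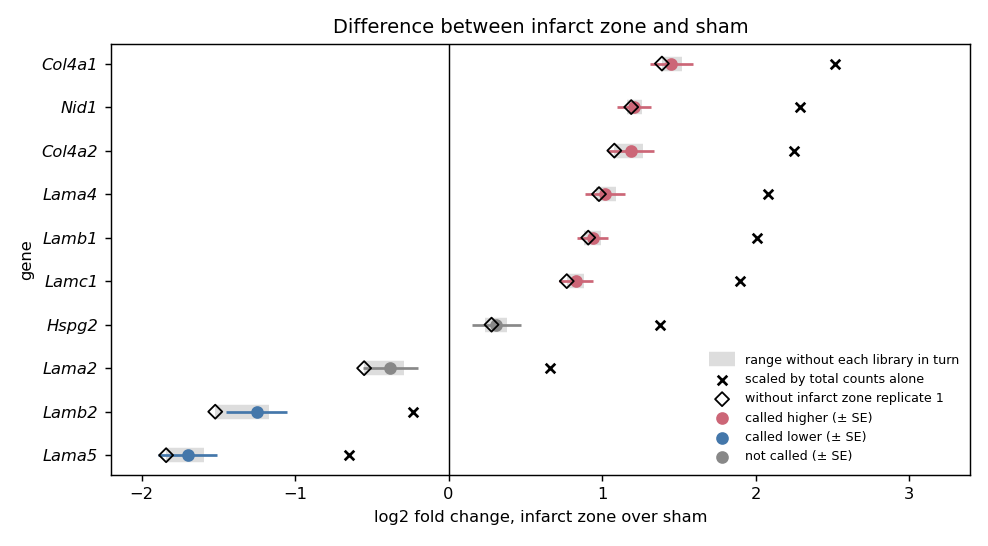
Log2 fold change of each gene between IZ and sham with its SE; the grey bar is the range when each library is left out in turn, the diamond is the value without IZ replicate 1, and the cross is the value scaled by total counts alone. Total counts shift every gene upward, which takes Lama2 across 0 and leaves Lamb2 at -0.23.

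Of the linkers, Nid1 rose and Hspg2 did not pass. Nid1 (ENSMUSG00000005397, chr13:13437551-13512269, + strand), which binds the laminin gamma chain and collagen IV, lay between 67.0 and 100.3 CPM in sham (median 87.6) and between 171 and 254 CPM in the IZ (median 187), with no overlap. The mean went from 84.7 ± 11.2 to 197 ± 26.1 CPM. Its log2 fold change was 1.21 ± 0.11 (2.32-fold, adjusted p of 2.01e-09 by edgeR's quasi-likelihood test). Relative to Lamc1 in the same library it was higher by 0.40 ± 0.07 on the log2 scale (exact two-sided permutation p of 0.000247, adjusted 0.000329).

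Hspg2 (ENSMUSG00000028763, chr4:137468769-137570630, + strand), the perlecan core protein, lay between 204 and 372 CPM in sham (median 296) and between 284 and 519.8 CPM in the IZ (median 320.4). Most IZ libraries lay within the sham range, and 3 of 9 lay above it. The mean was 291 ± 61.0 CPM in sham and 361 ± 86.1 CPM in the IZ. The log2 fold change was 0.31 ± 0.16 (adjusted p of 0.0762 by edgeR's quasi-likelihood test), and it passed in 4 of 26 alternatives, among them upper quartile scaling (0.42) and total counts alone (1.38). Against Lamc1 in the same library it was lower in the IZ by a log2 difference of -0.50 ± 0.15 (SE; exact two-sided permutation p of 0.00592, adjusted 0.00677).

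Of the 10 other collagen IV, laminin and nidogen genes, 5 had enough counts to be tested, of which 1 was higher and 2 were lower, with a median log2 fold change of 0.10 (36.3% higher and 33.1% lower over all features). Nid2, the second nidogen, rose from 21.8 ± 4.02 to 35.9 ± 7.44 CPM (0.74 ± 0.15, adjusted p of 0.000115 by edgeR's quasi-likelihood test), and 7 of 9 IZ libraries lay above all sham libraries. Nid2 shares 437 bases of its locus with Rtraf on the opposite strand, and the use of strand in counting is not given in the sources used here.

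Lamb3, a beta chain best known from epithelia, fell from 11.6 ± 4.77 to 1.24 ± 1.41 CPM (log2 fold change -3.17 ± 0.42, adjusted p of 4.41e-07 by edgeR's quasi-likelihood test), and -3.61 without IZ replicate 1. Its locus overlaps Hsd11b1 and G0s2 on the opposite strand and Gm37691 on the same strand, so its counts are uncertain. Sham libraries held 9 to 36 counts of Lamb3 and IZ libraries 0 to 12, so it was tested largely through its sham counts. Its call was thus largely set by the filter on counts, and its fold change is uncertain. Col4a4, a chain of the specialised collagen IV of kidney glomeruli, fell from 9.49 ± 3.74 to 3.72 ± 1.62 CPM (-1.43 ± 0.31, adjusted p of 0.000234 by edgeR's quasi-likelihood test), and did not pass with total counts alone (-0.36).

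Col4a5 (24.5 ± 6.73 CPM in sham and 25.8 ± 6.26 CPM in the IZ, log2 fold change 0.10 ± 0.17) did not pass (adjusted p of 0.609 by edgeR's quasi-likelihood test). A further 5 were too low to test. For Col4a3, sham libraries held 3 to 15 counts and IZ libraries 6 to 22, and for Col4a6, 0 to 4 and 1 to 25. Lama3 and Lamc3 had at most 4 counts in any library, and Lama1 had 0 in every sham library and 5 in all IZ libraries together, at or near the floor of 3 counts per library (on average 1.77 CPM in sham and 1.05 CPM in the IZ).

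Of 11 genes for other matrix proteins of basement membranes, 10 were tested, of which 4 were higher (Sparc, Col18a1, Col15a1 and Smoc1), 3 were lower (Hmcn1, Tinagl1 and Smoc2) and 3 did not pass, with a median log2 fold change of 0.24. These shares are near those of all features (36.3% higher and 33.1% lower). Sparc, a collagen-binding matricellular protein, rose from 521 ± 114 to 3988 ± 578 CPM (2.94), the highest of the list. The multiplexin collagens of basement membrane zones rose as well, Col18a1 by a log2 fold change of 2.79 and Col15a1 by 1.71. Hmcn1, hemicentin-1, was lowest (-1.17, 13.2 ± 4.72 and 5.92 ± 2.39 CPM). With total counts alone Tinagl1 (-0.64) and Smoc2 (-0.28) turned to 0.42 and 0.80, and Hmcn1 no longer passed (-0.11). Smoc1 (1.05) no longer passed with libraries thinned to the smallest total (0.57, adjusted p of 0.0639 by edgeR's quasi-likelihood test). Smoc2 passed in 11 of the 17 fits that left out 1 library, but not with upper quartile scaling (-0.17) or without a filter on low counts (-0.22). Genes here and in the following lists other than the highest and lowest were named after their values were seen.

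Among the receptors that bind these ligands, 8 of 10 were tested, of which 3 were higher, 3 were lower and 2 did not pass, with a median log2 fold change of -0.12. These shares too are near those of all features (36.3% higher and 33.1% lower). Itgb1, the integrin beta 1 subunit shared by most matrix-binding integrins, was highest (227 ± 24.0 and 436 ± 29.8 CPM, log2 fold change 0.94). Itga6 (0.34) and the collagen receptor Ddr1 (0.64) were also higher, though Itga6 no longer passed without IZ replicate 1 (adjusted p of 0.0513 by edgeR's quasi-likelihood test) or without sham replicate 3, 4, 5 or 8 (0.26 to 0.33). Bcam, which binds the Lama5 chain, was lowest at 97.6 ± 18.4 CPM in sham and 23.9 ± 15.5 CPM in the IZ (-2.04, and -2.41 without IZ replicate 1). The muscle laminin receptors Itga7 (-1.32) and Dag1, dystroglycan (-1.30), were lower too, and Dag1 did not pass with total counts alone (-0.26).

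The dystrophin and utrophin complex links dystroglycan to the cytoskeleton. All 8 of its genes were lower in the IZ, with a median log2 fold change of -1.59, against 33.1% of all features. Sgca, alpha-sarcoglycan, was lowest (147 ± 27.0 and 18.1 ± 16.9 CPM, -3.07, and -3.68 without IZ replicate 1), and Utrn, utrophin, moved least (48.6 ± 3.82 and 31.1 ± 6.44 CPM, -0.65). With total counts alone Utrn and Sgcd turned to 0.42 and 0.40, and Sgcd (-0.69) passed in 12 of the 17 fits that left out 1 library. Sgcd also did not pass with upper quartile scaling (-0.58) or without a filter on low counts (-0.63). Of the proteases that cut basement membrane, 4 of 5 were tested and 3 were higher, Mmp14 (18.8 ± 7.68 and 215 ± 63.0 CPM, 3.54), Hpse (1.86 ± 1.44 and 10.4 ± 4.71 CPM, 2.60) and Mmp2 (1.42). Mmp3 was lowest and did not pass (0.42, adjusted p of 0.305 by edgeR's quasi-likelihood test). Hpse had 0 to 6 counts per sham library, near the floor, and could be tested only through its IZ counts. Its call was thus largely set by the filter on counts, and its fold change is uncertain. The median of the 4, Hpse among them, was 2.01, and 36.3% of all features were higher.

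**Figure D5:**
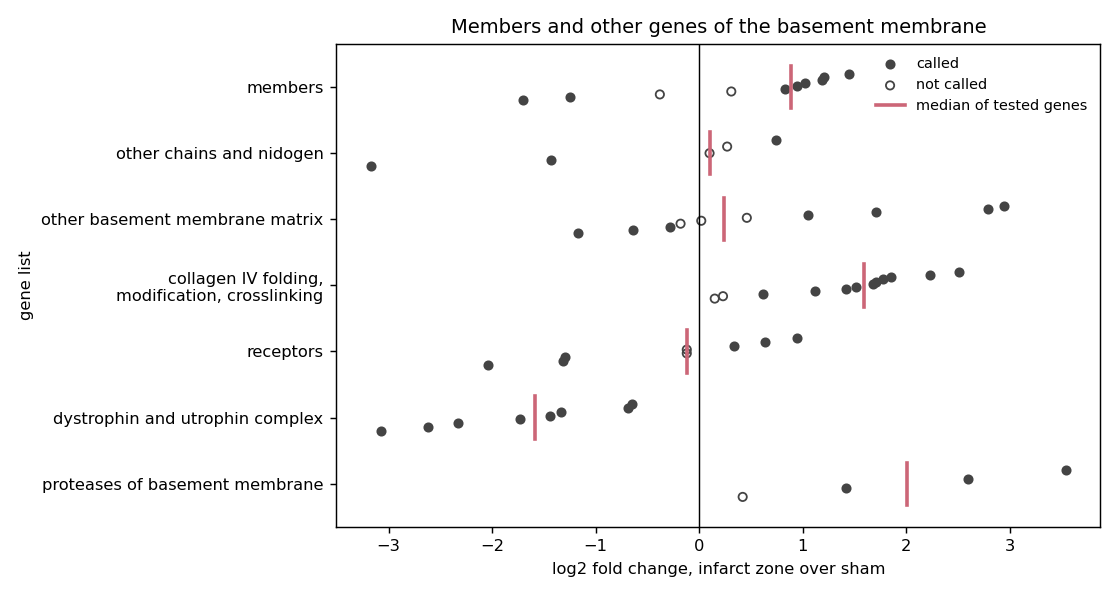
Log2 fold change between IZ and sham of each tested gene in the members and 6 further lists; filled points passed the threshold, open points did not, and the bar is the list's median. The folding and crosslinking list lies to the right of 0 and the dystrophin and utrophin complex to the left, with medians of 1.60 and -1.59.

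Markers of the cells that make or border basement membranes were examined beside these results. Among all features tested, 36.3% were higher and 33.1% lower. Of 11 endothelial markers, 0 were higher and 4 were lower (summed level 689 to 1157 CPM in sham and 475 to 753 CPM in the IZ). Of the members, Col4a1, Col4a2 and Lama4 rose, and Lama5 and Lamb2 fell. The 4 lower markers were Kdr, Flt1, Tek and Cldn5, and Cldn5 passed in 6 of the 17 fits that left out 1 library. With total counts alone Kdr (-0.68) and Flt1 (-0.87) stayed lower and Tek (0.17) did not pass. Cldn5 (0.54) and the 7 other endothelial markers (0.70 to 1.03) then passed as higher. Of 8 mural cell markers, 2 were higher and 4 were lower (516 to 751 and 281 to 525 CPM). The IZ high of 525 CPM was replicate 1, and the next IZ library was at 403 CPM. With total counts alone the lower markers Rgs5 (-0.17) and Myh11 (0.15) did not pass, and Cspg4 (1.14) and Notch3 (1.34) passed as higher. Of 8 fibroblast markers, 7 were higher and 0 were lower (1518 to 2869.7 and 10921 to 18906 CPM), and all 8 macrophage markers were higher (406 to 578 and 2204 to 5621 CPM). The part of any of these cells, or of the cardiomyocyte markers, in the members' differences was not tested.

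The remaining marker lists were as follows. Of 5 neutrophil markers 3 were tested, and these 3 were higher (summed level 4.40 to 12.2 CPM in sham and 14.7 to 208 CPM in the IZ). Of 7 lymphocyte markers 1 was tested and was higher (0.552 to 3.36 and 5.74 to 19.3 CPM). Mesothelial markers were higher in 1 of 2 tested (7.73 to 19.5 and 10.4 to 121 CPM). Skeletal muscle markers were higher in 1 of 2 tested (0.784 to 23.2 and 7.29 to 17.6 CPM), with Myh4 at 0 in every library. Of 2 tested Schwann cell markers 1 was higher and 1 lower (5.83 to 24.3 and 2.88 to 12.1 CPM). No adipocyte marker had enough counts to be tested (0 to 6.16 and 0 to 41.5 CPM). Over all features 36.3% were higher and 33.1% lower. Some genes called higher had few sham counts, such as Csf3r (neutrophil, 0 to 3 per library), Cd79b (lymphocyte, 0 to 4) and Tnnt3 (skeletal muscle, 0 to 3). Genes with so few could be tested only through their IZ counts, so their calls were largely set by the filter on counts.

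Within the groups, 10 relations between levels (log2 CPM) were examined, and none passed after Benjamini-Hochberg adjustment. Col4a1 and Col4a2 had Pearson r = 0.76 in sham (exact permutation p of 0.033, adjusted 0.0824; Spearman rho = 0.71, exact p of 0.0576, adjusted 0.196, n = 8) and r = 0.75 in the IZ (exact permutation p of 0.0151, adjusted 0.0824; rho = 0.67, exact p of 0.0589, adjusted 0.196, n = 9). Leaving out the 2 libraries farthest from the median of Col4a1 gave 0.62 and 0.45. Col4a1 and the summed endothelial markers had r = 0.78 in sham (rho = 0.83, exact p of 0.0154, adjusted 0.154) and 0.71 in the IZ (rho = 0.62, exact p of 0.0857, adjusted 0.214), with an exact permutation p of 0.0289 for each r (adjusted 0.0824, n = 8 and n = 9), and 0.55 and 0.54 without the 2 farthest libraries. Lama2 and the summed cardiomyocyte markers had r = 0.64 in the IZ (exact permutation p of 0.0425, adjusted 0.0851; rho = 0.50, exact p of 0.178, adjusted 0.277, n = 9), which rested on the 2 farthest libraries, IZ replicates 1 and 7, since r was 0.16 without them. The other 5 relations had r between -0.38 and 0.52.

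The genes whose deviations from the group means were most like those of Col4a1 over the 17 libraries, among 9314 genes whose mean reached 10 CPM, were Trp53i11 (r = 0.815), Tcf3 (0.799), Adamts5 (0.791), Nav1 (0.791) and the endothelial receptor gene Kdr (0.782). For Lamc1 they included Zscan26 (0.873), the elastin gene Eln (0.799), 4930402H24Rik (0.792) and Plxna2 (0.778). These genes share libraries and depth with the members, and likeness within the groups did not mean a like difference between them: Kdr was lower in the IZ (log2 fold change -1.70) where Col4a1 was higher.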

How the data were processed

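RNA of 17 hearts (8 sham left ventricles, 9 infarct zones) was sequenced as 3′ end (MACE) libraries whose molecular identifiers were used to remove PCR duplicates. The authors deposited raw counts per gene, not normalized. The submitters' processing notes name bcl2fastq, Bowtie2, HTSeq, DESeq2 and mm10, and the annotation release and strand setting are not given in the sources used here. Replicates are separate mice.

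All 17 columns were used. Of the 31647 features, 35 were merged groups of overlapping genes, kept for library sizes, and 31521 identifiers matched GENCODE on GRCm38, the source of gene coordinates. The test was edgeR 4.0.16 (R 4.3.3) over features passing filterByExpr with a minimum of 10 counts (two-sided quasi-likelihood F-test, no covariates, Benjamini-Hochberg threshold 0.05). The TMM factors differed between the groups. They were 0.616 to 0.729 in sham, 1.05 in IZ replicate 1 and 1.40 to 1.53 in the other IZ libraries. The study itself used DESeq2, run here (1.42.0) as an alternative. CPM uses TMM-scaled library sizes, and log2 CPM a prior count of 1. Ratios used counts + 0.5, with exact permutation tests in SciPy 1.17.1. The fit of fold changes and the exact test of ratios were tested on simulated data. No library was a copy of another (chi-square per degree of freedom 2.41 to 252). The last 500 bases of transcripts were compared with BLAST 2.17.0 (at least 100 bases at 90% identity). The floor of 3 counts covers counting error only.

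Named genes were the members, all other chains of the families, the highest and lowest tested gene of each of the 5 other pathway lists, and the 5 genes most like Col4a1 and Lamc1. Other names are marked in the text. The results of 2 genes that met this rule are not reported here. The lists cover other chains and nidogen, other basement membrane matrix, collagen IV folding, receptors, the dystrophin and utrophin complex, proteases, and markers of 11 cell types. The members and lists were chosen with earlier results of these data known. Alternatives were other scalings, filters, thinning, DESeq2, a replicate block and leaving out each of the 17 libraries.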

Additional observations from a re-analysis of the deposited data

Results flagged for a closer look

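Values were set apart where the highest or lowest library of a group lay far from the nearest other library relative to the group's range (Dixon's criterion). Of 75 groups of values examined, 11 were set apart, where chance flags about 1 group in 20. IZ replicate 1 accounted for 4 of them: Lamb2 at 191 CPM (nearest 100.4 CPM), Bcam at 64.3 CPM (nearest 26.4), Sgca at 60.7 CPM (nearest 22.0), and the log2 ratio of Lamb1 to Lamb2 at -0.58 (nearest 0.58). This is the library with 19.5% mitochondrial counts.

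In sham, Lamb1 was low in replicate 5 at 52.3 CPM (nearest 64.9), Serpinh1 was high in replicate 8 at 272 CPM (nearest 214), Utrn was low in replicate 8 at 40.2 CPM (nearest 46.6), and Mmp14 was high in replicate 3 at 36.1 CPM (nearest 21.5). The log2 ratio of Hspg2 to Lamc1 was high in IZ replicate 7 at 1.75 (nearest 1.25). Lama1 in IZ replicate 8 (1.02 CPM) and Lamc3 in sham replicate 3 (1.57 CPM) stood apart at 2 counts each, at or below the floor of 3 counts.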

How the results depend on the processing

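All 8 ratios kept their direction and stayed past the threshold in all 152 comparisons with an alternative, and the 6 members that rose passed in all 26 alternatives. Scaling by total counts alone moved most, and the share of called features that were higher went from 52.3% to 85.7%. The members called higher went from 6 to 8 and lower from 2 to 1. The other chains went to 3 higher and 1 lower, and the other matrix genes to 9 higher and 0 lower. The receptors went to 5 higher, and the dystrophin and utrophin complex to 1 higher. The log2 fold change turned for Lama2 (0.66), Utrn (0.42), Smoc2 (0.80), Tinagl1 (0.42) and Sgcd (0.40). Under this scaling the median feature went from 0.05 to 1.13. Of the other chains, 2 were higher with the DESeq2 Wald test, and 0 were lower with a minimum mean of 50 counts or with libraries thinned to 1237675 counts, where fewer genes were tested. Smoc1 no longer passed with thinned libraries (0.57), and Smoc2 and Sgcd no longer passed with upper quartile scaling or without a filter on low counts. Features called numbered 10664 without a filter and 5239 with that minimum, against 8544. In sham, r turned for Lamb1 and Lamc1 (0.14) and for Lama2 and cardiomyocyte markers (0.08) with total counts, and for Col4a1 and Lamc1 (-0.20) without the 2 farthest libraries; the cause was not tested.

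Leaving out each library in turn kept the sign of every member's log2 fold change. Lama2 passed in 3 of 17 such fits (-0.45 without sham replicate 1, -0.55 and -0.42 without IZ replicate 1 and 6) and Hspg2 in 2 of 17 (0.36 without sham replicate 2 and 0.38 without IZ replicate 3). Smoc2 no longer passed without sham replicate 6 or IZ replicate 2, 3, 4, 8 or 9 (-0.26 to -0.21), nor did Sgcd without sham replicate 1, 3 or 4 or IZ replicate 3 or 4 (-0.67 to -0.58). Replicate numbers are shared by different mice, and same-numbered libraries did not deviate together (correlations -0.216 to 0.128, and 1 of 8 closest to its own number). The replicate block was fitted to replicates 1 to 8, so IZ replicate 9 was left out of it. It left 6 members higher and 2 lower, and Smoc2 (-0.24) and Sgcd (-0.76) no longer passed. Smoc2 also did not pass when IZ replicate 9 alone was left out (-0.23). Differences in genes with few counts, such as Lama1, Lama3 and Lamc3, were not detectable at this depth.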
